A study of Mus musculus with 8 samples.

Results

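The Hox genes encode homeodomain transcription factors that lie in 4 clusters, Hoxa to Hoxd, and are numbered by paralogue group along each cluster. In the embryo low-numbered (3′) genes are switched on in anterior tissue and high-numbered (5′) genes in posterior tissue, and adult mesenchyme and gut epithelium keep a combination that reflects where they came from. The members described here were all rows of the 8 deposited tables whose symbol was Hoxa, Hoxb, Hoxc or Hoxd followed by a number. There were 38 members (11 Hoxa, 10 Hoxb, 8 Hoxc and 9 Hoxd) among 20276 gene rows. In the GENCODE M21 annotation of GRCm38, Hoxa lies on chromosome 6 from 52155590 to 52260880 on the minus strand. Hoxb lies on chromosome 11 from 96194316 to 96368256, Hoxc on chromosome 15 from 102921103 to 103036852 and Hoxd on chromosome 2 from 74668310 to 74765142, all on the plus strand. Counting was to a transcriptome and the use of strand is not given in the sources used here, so 11 members that overlap another member on the same strand and 14 that overlap a gene on the other strand carry some uncertainty. Among them, Hoxc5 overlaps Hoxc6, Hoxc8, Hoxc9 and Hoxc10, and Hoxa3 overlaps Hoxa4, Hoxa5 and Hoxa6.

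Tumours were grown from mutant mouse colon tumour organoids transplanted under the outer muscle layer of the caecum. The organoid lines had been clonally expanded. The hosts were age-matched littermates of both sexes carrying floxed Zeb1 (age is not given in the sources used here), given a tamoxifen diet in both groups. FibΔZeb1 hosts were positive for a tamoxifen-inducible Cre that the labels call Col1a1Cre-ERT2 and the study's methods a Col1a2 allele, and FibCtrl hosts were negative for it, so deletion was limited to cells in which that collagen promoter was active. Single cells gated as fibroblast, epithelial or immune were sorted into 384-well plates, 1 tumour to a plate, with 4 plates of each genotype and 3072 wells, and the mutant epithelium came from organoids while the stroma was the host's. Deposited transcript counts summed to between 981881 and 5905188 per plate without spike-ins and mitochondrial genes. Of 2051 wells with at least 500 transcripts, 1831 passed the mitochondrial filter, and clustering without the Hox genes gave 143 fibroblast-like, 33 mesothelial-like, 27 pericyte-like, 399 epithelial-like and 791 immune wells. All 12 fibroblast markers reached 10 CPM in fibroblast wells, all 14 epithelial markers did in epithelial wells, and all 9 listed mesothelial markers did in mesothelial wells. The clusters were named from these lists, so this is no independent check, and 11 of the 12 fibroblast markers also reached 10 CPM in epithelial and in immune wells. Summed, the fibroblast markers were at 75591 CPM in fibroblast, 1385 CPM in epithelial and 2685 CPM in immune wells. The epithelial markers were at 7071 CPM in epithelial, 204 CPM in fibroblast and 504 CPM in immune wells. Levels are given as CPM, the usual depth-scaled count, in which the transcripts of a gene are divided by all transcripts of the class, spike-ins and mitochondrial genes aside, either pooled over the wells of a class with an exact 95% Poisson interval or per plate, and the intervals cover counting error only.

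Zeb1, the targeted gene, was read first. In fibroblast wells of FibCtrl plates 1 to 4 its level was 93.5, 0, 0 and 83.4 CPM, and in those of FibΔZeb1 plates 1 to 4 it was 43.7, 44.0, 48.0 and 28.3 CPM. The FibCtrl values at 0 came from 3 and 9 wells, with 79909 and 73126 transcripts. Over plates with at least 5 fibroblast wells the difference was -18.0 CPM (exact two-sided permutation test, p = 0.429, n = 3 and 4), and without FibCtrl plate 3 it was -47.5 CPM (exact p = 0.0667, the smallest it can give). Without FibCtrl plate 1 or 4 it was -0.74 or -5.76 CPM. In edgeR's quasi-likelihood test, over plates with at least 10 fibroblast wells, the log2 fold change was -1.13 ± 0.29 (SE, Benjamini-Hochberg adjusted p = 0.489). Zeb1 transcripts were thus still read on every FibΔZeb1 plate, at a lower level than on the FibCtrl plates with many fibroblast wells.

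The promoters shown are those of the 5′ Hoxd genes that differed together between fibroblast plates and of Hoxa5, the leading member in mesothelial wells. Each is 300 bases from RefSeq on GRCm38.p6, from 250 bases before the start to 50 after it, and is written 5′ to 3′ on the gene's strand. Capitals mark TTTATG, a sequence bound by the gut factors Cdx1 and Cdx2, read on either strand. Hoxd9 is chr2:74697513-74697812, Hoxd10 is chr2:74691641-74691940, Hoxd11 is chr2:74679308-74679607 and Hoxa5 is chr6:52204538-52204837.
Hoxd9: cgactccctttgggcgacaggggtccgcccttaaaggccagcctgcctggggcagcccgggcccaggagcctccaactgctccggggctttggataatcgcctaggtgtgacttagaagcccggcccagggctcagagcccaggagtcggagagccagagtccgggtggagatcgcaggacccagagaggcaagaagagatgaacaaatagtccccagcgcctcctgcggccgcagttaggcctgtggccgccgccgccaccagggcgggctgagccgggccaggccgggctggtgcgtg
Hoxd10: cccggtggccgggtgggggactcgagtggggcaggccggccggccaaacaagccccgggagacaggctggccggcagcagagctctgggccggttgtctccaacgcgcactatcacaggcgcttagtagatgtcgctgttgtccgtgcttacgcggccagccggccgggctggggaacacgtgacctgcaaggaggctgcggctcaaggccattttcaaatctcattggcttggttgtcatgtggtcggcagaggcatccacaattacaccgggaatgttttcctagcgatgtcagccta
Hoxd11: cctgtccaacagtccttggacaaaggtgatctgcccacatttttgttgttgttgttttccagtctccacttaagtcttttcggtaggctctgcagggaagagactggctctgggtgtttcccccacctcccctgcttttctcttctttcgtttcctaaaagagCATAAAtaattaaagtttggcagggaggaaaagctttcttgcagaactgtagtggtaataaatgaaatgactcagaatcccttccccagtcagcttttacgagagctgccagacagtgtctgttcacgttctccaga
Hoxa5: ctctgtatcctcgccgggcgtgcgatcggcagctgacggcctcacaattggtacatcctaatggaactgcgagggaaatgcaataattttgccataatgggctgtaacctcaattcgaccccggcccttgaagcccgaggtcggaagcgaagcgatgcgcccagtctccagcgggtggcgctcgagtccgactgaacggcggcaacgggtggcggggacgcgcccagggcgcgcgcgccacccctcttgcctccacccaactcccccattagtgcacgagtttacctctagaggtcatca
TTTATG was found in 11.9% of all 32851 promoters and in 5 of 24 promoters of 22 members, those of Hoxa7, Hoxb8, Hoxd3, Hoxd4 and Hoxd11. TGACAG, a Meis sequence, was in 19.2% of all promoters and in 2 member promoters (Hoxa2 and Hoxa3). TGATNNAT, a Hox and Pbx sequence, was in 8.85% of all and in 4 member promoters. Within the windows printed, Hoxd9, Hoxd10 and Hoxa5 hold 20, 22 and 29 CpG pairs and Hoxd11 holds 4, beside a median of 7 over all promoters and 14.5 over member promoters. A match in these windows is a description of letters only.

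Hox transcripts were read in every class, in stroma and epithelium far above the level in immune wells. The summed pooled level was 551 CPM in fibroblast wells, 479 CPM in mesothelial wells, 537 CPM in pericyte wells, 653 CPM in epithelial wells and 74.0 CPM in immune wells. On epithelial wells of the 8 plates it ranged from 560 to 731 CPM with a median of 637 CPM. On fibroblast wells it was 520, 123 and 617 CPM on FibCtrl plates 1, 3 and 4, and 549, 425, 508 and 611 CPM on FibΔZeb1 plates 1 to 4. FibCtrl plate 3 stands apart, with 9 Hox transcripts in 9 fibroblast wells. Epithelial wells exceeded immune wells on 8 of 8 plates by 563 ± 89.2 CPM (SD over plates, exact two-sided sign-flip test, p = 0.00781, the smallest it can give, adjusted p = 0.05 over 8 comparisons). Fibroblast wells exceeded immune wells on 7 of 7 plates by 410 ± 160 CPM (exact sign-flip test, p = 0.0156, the smallest it can give, adjusted p = 0.05). Fibroblast wells were below epithelial wells on 6 of 7 plates, by 175 ± 167 CPM (exact sign-flip test, p = 0.0312, adjusted p = 0.05). Without FibCtrl plate 3 that last difference was -127 CPM (exact p = 0.0625), and over plates with at least 10 wells of each class it was -91.4 CPM (exact p = 0.125).

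The immune level has a background beside it. Epcam, which immune cells should lack, was at 59.7 CPM in immune wells and 894 CPM in epithelial wells, and Col1a1 was at 561 CPM in immune wells and 18374 CPM in fibroblast wells. After thinning every well to 1000 transcripts, a Hox transcript was read in 43.8% of epithelial wells, 34.3% of fibroblast wells, 33.3% of mesothelial wells and 7.4% of immune wells (exact binomial interval 5.64 to 9.50%). Without thinning the shares were 97.0, 86.7, 93.9 and 26.7%, at median depths of 26302, 19298, 22439 and 2865 transcripts a well. No member reached 10 CPM in immune wells, where 55.8% of Hox transcripts were Hoxb and 14.95% were Hoxc. Carry-over between wells as a source of the immune level was not tested.

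**Figure D1:**
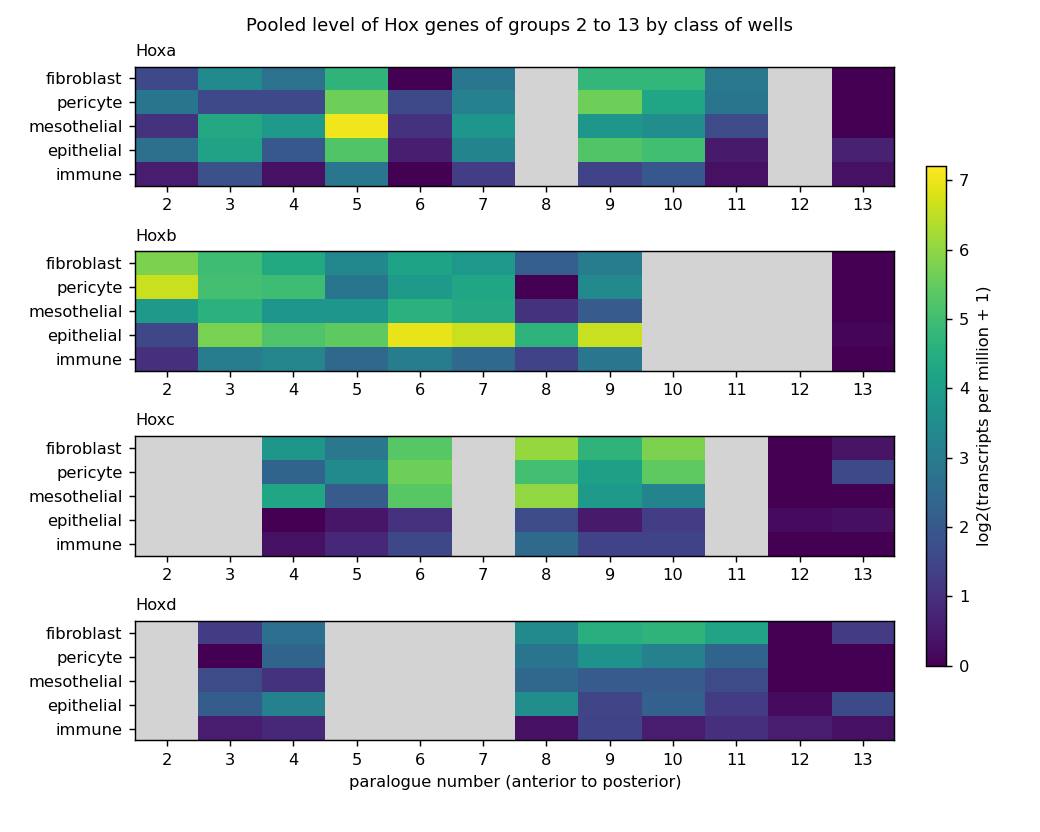
Pooled level of the members of paralogue groups 2 to 13 as log2(CPM + 1), by class of wells (rows) and paralogue number (columns) for Hoxa to Hoxd, with positions that have no row in the tables in grey. Epithelial wells are brightest at Hoxb6, Hoxb7 and Hoxb9, fibroblast wells at Hoxc8, Hoxc10 and Hoxb2, pericyte wells at Hoxb2 and mesothelial wells at Hoxa5.

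Epithelial wells carried a Hoxb code. Hoxb6, Hoxb7 and Hoxb9 led with 124, 98.5 and 95.8 CPM pooled and together made up 48.8% of epithelial Hox transcripts. Over the 8 plates Hoxb6 ranged from 99.3 to 137 CPM (median 123), Hoxb7 from 73.5 to 146 CPM (median 96.5) and Hoxb9 from 61.7 to 138 CPM (median 93.2). All 3 were therefore present on every plate and no plate lacked any of them. The central and anterior members Hoxb3, Hoxb5, Hoxb4 and Hoxb8 followed with 52.5, 41.3, 36.2 and 24.1 CPM. Of Hoxa, the members over 10 CPM were Hoxa5 (36.7), Hoxa9 (36.6), Hoxa10 (31.2) and Hoxa3 (16.8 CPM), and of Hoxd only Hoxd8 was (10.5 CPM). Hoxb2, next to Hoxb3 on the chromosome, was at 1.90 CPM (1.24 to 2.79). Hoxc4 was at 0 of 13673036 epithelial transcripts, and the other Hoxc members were at or under 2.19 CPM, the level of Hoxc8.

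Fibroblast wells carried a mixed code that differed between plates and between the fibroblast groups described below. The levels pooled over wells weigh plates with many wells most. Hoxc8, Hoxc10, Hoxb2, Hoxc6 and Hoxb3 were at 65.5, 54.0, 53.7, 39.5 and 30.3 CPM pooled. Hoxa9, Hoxa10 and Hoxa5 were at 26.3, 26.0 and 24.5 CPM, Hoxc9 at 24.5 CPM and Hoxc4 at 12.98 CPM. The 5′ Hoxd genes Hoxd10, Hoxd9 and Hoxd11 were at 24.8, 21.6 and 17.3 CPM, while Hoxd12 was at 0. The Hoxb genes that led in epithelium were low here, with Hoxb6 at 17.0, Hoxb7 at 13.3 and Hoxb9 at 7.21 CPM. In all, 16 members reached 10 CPM in fibroblast wells and 12 in epithelial wells, and Hoxb6 was 124 CPM in one class and 17.0 CPM in the other.

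The share of each cluster was compared within plates over the 6 plates with at least 20 Hox transcripts in 5 or more fibroblast wells. Hoxc made up 30.7 ± 22.1% of Hox transcripts in fibroblast wells and 0.744 ± 0.447% in epithelial wells (SD over plates). It was higher in fibroblast wells on 6 of 6 plates (exact sign-flip test, p = 0.0312, the smallest it can give, adjusted p = 0.05). Hoxb made up 32.5 ± 13.2% and 72.3 ± 3.85%, and was lower in fibroblast wells on 6 of 6 plates (exact sign-flip test, p = 0.0312, adjusted p = 0.05). Hoxa, at 18.6 ± 4.49% and 21.8 ± 3.25%, differed by less than the spread between plates (exact p = 0.25, adjusted p = 0.25). Hoxd, at 18.2 ± 15.5% and 5.14 ± 3.48%, was higher in fibroblast wells on 5 of 6 plates (exact p = 0.0938, adjusted p = 0.125). The spread of Hoxc over fibroblast plates was wide, from 3.45 to 55.3%, whereas in epithelial wells it stayed between 0.317 and 1.59% on all 8 plates. The lowest fibroblast share, on FibΔZeb1 plate 2, rests on 1 Hoxc transcript in 6 wells.

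**Figure D2:**
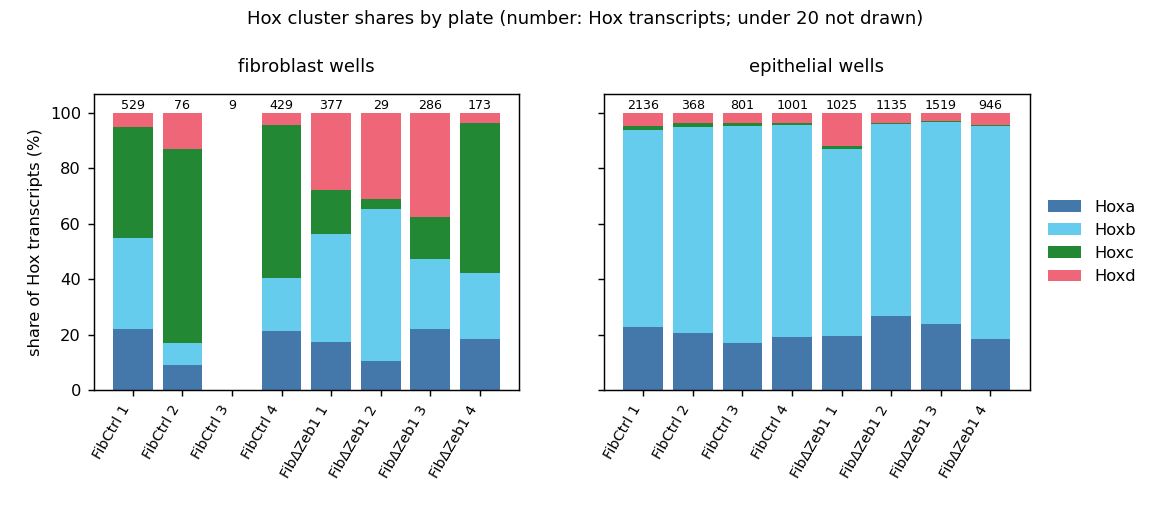
Share of Hox transcripts (percent, vertical axis) from each cluster on each plate, in fibroblast wells (left) and epithelial wells (right), with the number of Hox transcripts above each bar. Hoxb fills 67.5 to 78.3% of every epithelial bar, while Hoxc and Hoxd trade places between fibroblast bars. FibCtrl plate 2 rests on 3 fibroblast wells and entered only the alternative with at least 3 wells, and FibCtrl plate 3, with 9 Hox transcripts, is not drawn.

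Over the 5 plates with at least 10 wells of both classes, 21 members had a pooled level of at least 10 CPM in either class. Hoxb2, Hoxc4, Hoxc6, Hoxc8, Hoxc9 and Hoxc10 were higher in fibroblast wells on all 5 plates, which is 6 of 21 members beside 16.2% of 10583 genes. Hoxb3 to Hoxb9 were lower on all 5 plates, which is 7 of 21 members beside 43.3% of genes. The neighbours Hoxb2 and Hoxb3 thus lay on opposite sides on the same 5 plates. These counts carry no test of their own. The 6 members higher in fibroblast wells reached 10 CPM in that class only, so the filter largely set their direction. Hoxb8 and Hoxb9 likewise passed through epithelial wells only. The share of members that were lower was below that of all genes.

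By paralogue number, epithelial wells rose to 126 CPM at group 6 and 135 CPM at group 9 and fell to 36.3 CPM at group 10 and 1.83 CPM at group 11. Fibroblast wells peaked at group 10 with 105 CPM and still held 23.7 CPM at group 11. Mesothelial wells peaked at group 5 with 146 CPM and held 22.3 CPM at group 10. Posterior members (groups 9 to 13) made up 26.5 ± 5.003% of epithelial and 35.5 ± 15.9% of fibroblast Hox transcripts over the same 6 plates, a difference of -9.002 points that was smaller than its spread (exact sign-flip test, p = 0.219, adjusted p = 0.25). With groups 10 to 13 alone the difference was -16.5 points (exact p = 0.0312). Group 13, which marks the hindmost gut in the embryo, was at 2.93 CPM in epithelial and 1.73 CPM in fibroblast wells pooled. It was uneven over plates, with 13.2 CPM (8.07 to 20.4) in epithelial wells of FibΔZeb1 plate 1 and 58.6 CPM (16.0 to 150), from 4 transcripts, in the 6 fibroblast wells of FibΔZeb1 plate 2.

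**Figure D3:**
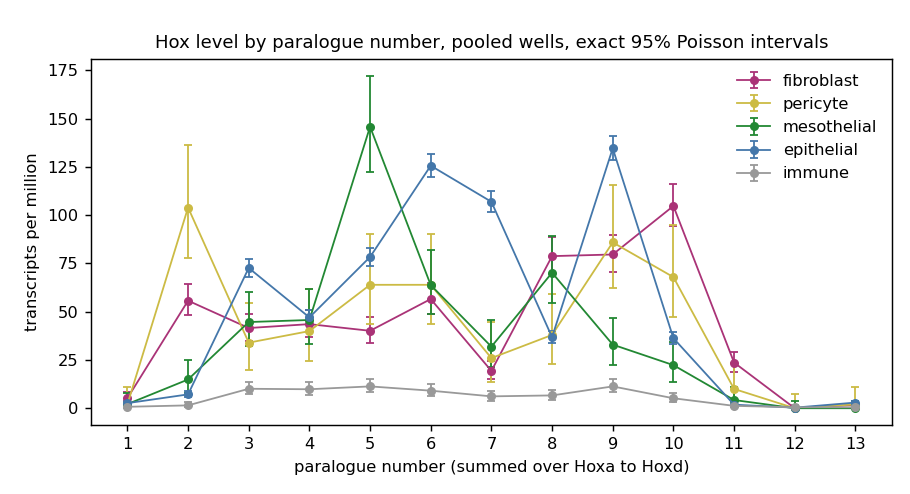
Level in CPM (vertical axis) summed over Hoxa to Hoxd for each paralogue number (horizontal axis), pooled by class of wells, with exact 95% Poisson intervals. The epithelial line is highest at groups 6 and 9, the fibroblast line at group 10 and the mesothelial line at group 5, and all lines are low from group 12.

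The fibroblast wells of different plates carried different Hox codes. Hoxc8 was at 83.6, 138, 13.7 and 109 CPM on FibCtrl plates 1 to 4 and at 4.37, 14.7, 10.7 and 156 CPM on FibΔZeb1 plates 1 to 4. It was high on FibCtrl plates 1, 2 and 4 and on FibΔZeb1 plate 4, and low on the others, so the genotypes overlapped. Hoxd10 was at 2.95, 62.6, 0 and 0 CPM on FibCtrl plates and 69.9, 0, 53.3 and 0 CPM on FibΔZeb1 plates. Hoxd11 was at 1.97, 0, 0 and 1.44 CPM on FibCtrl plates and 34.9, 14.7, 56.8 and 0 CPM on FibΔZeb1 plates. FibΔZeb1 plates 1 and 3 thus held most of the Hoxd10 and Hoxd11 transcripts, with 48 and 30 of the 86 pooled for Hoxd10 and 24 and 32 of the 60 pooled for Hoxd11.

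Grouping Hoxd9 to Hoxd11 was a choice made after their values were seen, and their sum is given without a test. It was 13.8, 100, 0 and 18.7 CPM on FibCtrl plates and 131, 29.3, 167 and 0 CPM on FibΔZeb1 plates, beside Hoxc4 to Hoxc10 at 207, 664, 54.7 and 341 CPM and at 87.4, 14.7, 76.4 and 332 CPM. A Hoxd9 to Hoxd11 transcript was held by 5 of 44 wells on FibCtrl plate 1, 7 of 26 on FibCtrl plate 4, 17 of 23 on FibΔZeb1 plate 1 and 11 of 17 on FibΔZeb1 plate 3. The top well gave 10 of 14, 5 of 13, 20 of 90 and 31 of 94 of these transcripts on the same plates. On FibΔZeb1 plate 4 none of 15 wells held such a transcript, where 3 transcripts, a fixed floor set here, would be 10.6 CPM. Over all 143 fibroblast wells, 68 held Hoxc transcripts alone, 7 held Hoxd9 to Hoxd11 alone, 37 held both and 31 held neither. Wells with neither were shallow, with a median of 5335 transcripts against 37216 in wells with both.

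**Figure D4:**
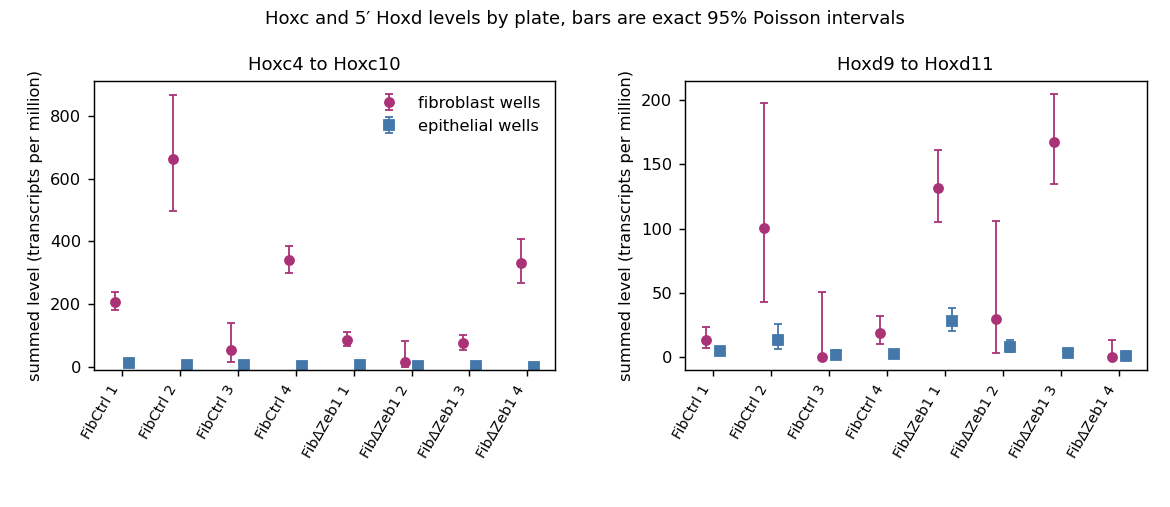
Summed level in CPM (vertical axis) of Hoxc4 to Hoxc10 (left) and Hoxd9 to Hoxd11 (right) by plate, in fibroblast wells (circles) and epithelial wells (squares), with exact 95% Poisson intervals. FibΔZeb1 plates 1 and 3 are high for Hoxd9 to Hoxd11 and low for Hoxc, and FibΔZeb1 plate 4, at 332 CPM for Hoxc and 0 for Hoxd9 to Hoxd11, lies nearest to FibCtrl plate 4.

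The levels were also read within each fibroblast group. Clustering gave a group led by Dpt, Dcn and Lum (67 wells) and a group led by Col8a1, Tnc and Tagln (76 wells). In the Tnc and Tagln group the summed Hoxd9 to Hoxd11 level was 2.40 CPM on FibCtrl plate 1 (17 wells), 112 CPM on FibΔZeb1 plate 1 (21 wells), 171 CPM on FibΔZeb1 plate 3 (11 wells) and 0 on FibΔZeb1 plate 4 (6 wells). In the Dpt and Lum group it was 21.7 and 22.4 CPM on FibCtrl plates 1 and 4 (27 and 20 wells), 253 CPM on FibΔZeb1 plate 1 (2 wells), 162 CPM on FibΔZeb1 plate 3 (6 wells) and 0 on FibΔZeb1 plate 4 (9 wells). In that group it was also 110 CPM (47.4 to 216) on FibCtrl plate 2 (2 wells) and 71.0 CPM on FibΔZeb1 plate 2, from 1 transcript in 1 well. FibΔZeb1 plates 1 and 3 were thus above FibCtrl plates 1 and 4 in the Dpt and Lum group, on few wells, while the interval of FibCtrl plate 2 overlapped theirs.

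**Figure D5:**
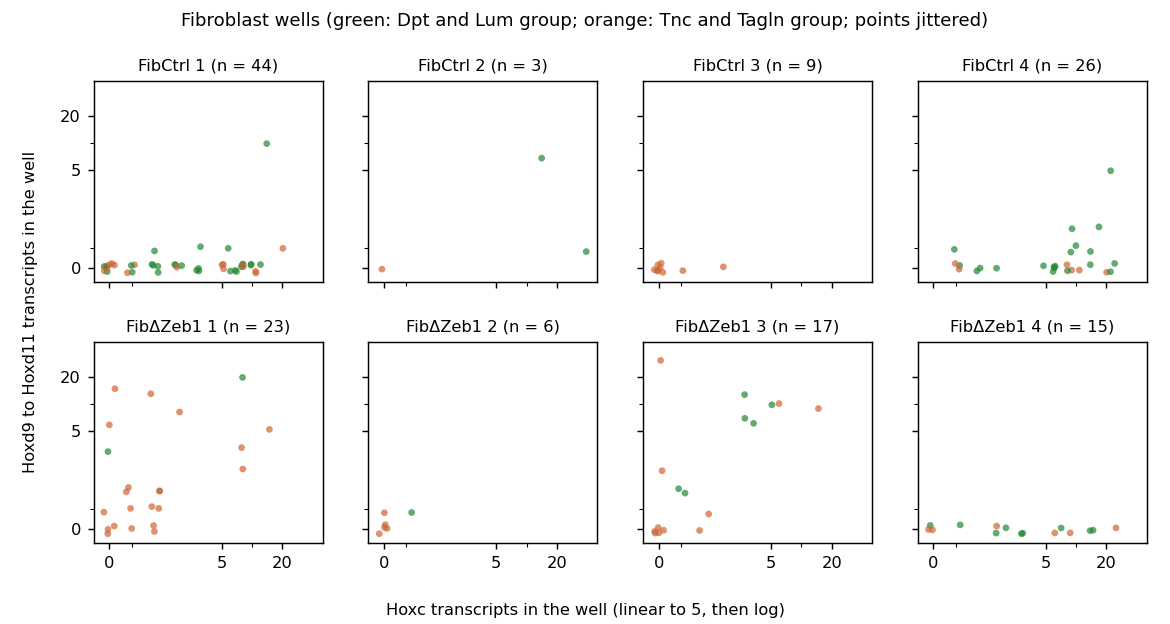
Each point is a fibroblast well, with its Hoxc transcripts on the horizontal axis and its Hoxd9 to Hoxd11 transcripts on the vertical axis (both linear to 5 and logarithmic above, points jittered), by plate, in green for the Dpt and Lum group and orange for the Tnc and Tagln group. Wells of FibCtrl plates 1 and 4 and FibΔZeb1 plate 4 spread along the horizontal axis, and wells of FibΔZeb1 plates 1 and 3 spread along both.

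Other positional regulators were read from lists. The gut mesenchyme list (9 genes, among them Nkx2-3, Foxf1 and Hand2, factors of the visceral mesoderm) summed to 64.9, 589, 13.7 and 15.8 CPM in fibroblast wells of FibCtrl plates 1 to 4 and to 179, 132, 137 and 45.9 CPM on FibΔZeb1 plates. The list of body wall and limb factors (15 genes) summed to 623, 250, 342 and 592 CPM and to 353, 425, 306 and 428 CPM. Tbx15, a body wall factor, was at 33.4 and 21.6 CPM on FibCtrl plates 1 and 4 and at 0 on the other 6 plates. Of those, FibCtrl plates 2 and 3 and FibΔZeb1 plate 2 had only 3, 9 and 6 fibroblast wells. Twist2, of the same list, was at 24.6 and 23.0 CPM on FibCtrl plates 1 and 4. It was at 55.4, 58.6, 48.1 and 17.7 CPM on FibΔZeb1 plates 1 to 4. Of the 6 list members tested by edgeR, Twist2 alone had a positive log2 fold change. Prrx1 gave 282 of the 477 CPM of the list pooled over fibroblast wells. Pooled over fibroblast wells with Hoxc transcripts alone, the gut list summed to 39.6 CPM (30.5 to 50.7) and the body wall list to 612 CPM (574 to 651), and in wells with both kinds of Hox transcript to 159 CPM (138 to 181) and 358 CPM (327 to 391). These well groups come from different plates, and the values are a description of them.

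Between genotypes, no member was called. In fibroblast wells (2 FibCtrl and 3 FibΔZeb1 plates with at least 10 wells) 16 members passed the filter on low counts and 0 were called by edgeR's quasi-likelihood test at an adjusted p of 0.05, beside 0.0122% of 8223 genes. At an unadjusted p of 0.05, 3 of the 16 members passed, beside 458 genes or 5.57%. The median log2 fold change was -0.21 over these members and 0.02 over all genes tested. Hoxd10 had a log2 fold change of 4.52 ± 1.475 (SE, edgeR adjusted p = 0.816), Hoxd11 of 4.08 ± 1.26 (adjusted p = 0.726) and Hoxc9 of -1.79 ± 0.46 (adjusted p = 0.468), and both Hoxd genes passed the filter through FibΔZeb1 plates 1 and 3. With no gene filter, edgeR called Hoxd10, Hoxd11 and Hoxc9, which is 3 of 32 members, beside 322 of 15199 genes or 2.12%. The single gene called was Aldh1a2, an enzyme of retinoic acid synthesis, which was named after its value was seen, with a log2 fold change of 3.88 ± 0.35 (edgeR adjusted p = 0.0154), and no gene was called by edgeR without FibΔZeb1 plate 1, 3 or 4. DESeq2 called 0 of the 16 members and 37 genes.

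In epithelial wells 14 members passed the filter over 4 plates of each genotype and 0 were called by edgeR, beside 0% of 10344 genes (183 genes or 1.77% under an unadjusted p of 0.05), with 1 member, Hoxa10, under an unadjusted p of 0.05 (log2 fold change 0.55 ± 0.24, adjusted p = 1). DESeq2 also called 0 members and 1 gene. The epithelial counts include the Reg4, Clca6 and Guca2a cluster described below, which gave 40 of 66 Hoxa10 transcripts on FibΔZeb1 plate 2. In the other epithelial wells Hoxa10 was at 22.4 CPM on that plate, within the 17.3 to 26.8 CPM of the FibCtrl plates. FibΔZeb1 plate 4 also lay within that range, and plates 1 and 3 were above it, at 35.7 and 40.04 CPM. The genotype difference without this cluster was not tested. In immune wells 0 members passed the filter and edgeR called 0% of 6834 genes, with 166 genes or 2.43% under an unadjusted p of 0.05. None of the genes of the lists of Meis and Pbx cofactors, Cdx factors, chromatin regulators, gut mesenchyme, body wall, coelomic lining and noncoding transcripts was called by edgeR in either direction in any of the 3 classes.

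The summed Hox level did not differ between genotypes past the threshold in any of the 3 classes with all plates. In fibroblast wells it was 420 ± 262 CPM in FibCtrl and 523 ± 78.1 CPM in FibΔZeb1 (SD, n = 3 and 4, exact permutation test, p = 0.629), and without FibCtrl plate 3 the difference was -45.3 CPM instead of 103 CPM. In epithelial wells it was 614 ± 77.8 and 670 ± 53.4 CPM (n = 4 and 4, exact permutation test, p = 0.286), and without FibCtrl plate 1 the difference was 94.5 CPM instead of 56.0 CPM (exact permutation test, p = 0.0571). In immune wells it was 89.4 ± 59.8 and 70.1 ± 32.5 CPM (n = 4 and 4, exact permutation test, p = 0.657). The Hoxc share of fibroblast wells was 47.6 ± 10.9% and 22.3 ± 22.1% (n = 2 and 4, exact permutation test, p = 0.267, adjusted p = 0.588 over 12 comparisons), and the Hoxd share 4.77 ± 0.477% and 24.9 ± 14.9% (exact p = 0.333, adjusted p = 0.588). With these numbers of plates the test cannot go below 0.0667. Within flow cells, each with 1 FibCtrl and 2 FibΔZeb1 plates, the differences in Hoxc and Hoxd share were -30.2 and 24.3 points on the first and -20.4 and 16.0 points on the second. FibΔZeb1 plate 4 went the other way, with a Hoxd share of 3.47%, below both FibCtrl plates at 4.43 and 5.10%, and a Hoxc share of 54.3%. The smallest p of the 12 was that of the Hoxc share of epithelial wells, 1.19 ± 0.381% in FibCtrl and 0.544 ± 0.199% in FibΔZeb1 (n = 4 and 4, exact permutation test, p = 0.0571, adjusted p = 0.588). In immune wells, over plates with enough Hox transcripts, the Hoxc share was 23.4 ± 0.997% and 7.41 ± 6.61% (n = 2 and 3), which was not tested.

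Mesothelial wells, from the lining of the body cavity, were led by a different member. Hoxa5 was highest with 130 CPM (108 to 155), followed by Hoxc8 at 64.9 CPM and Hoxc6 at 39.3 CPM, and these 3 made up 48.9% of 450 Hox transcripts. Of 122 Hoxa5 transcripts, 91 came from the 15 wells of FibCtrl plate 3 and 11 from the 9 wells of FibΔZeb1 plate 4. The 5′ Hoxd genes were low, with Hoxd9 to Hoxd11 summing to 8.50 CPM. On FibCtrl plate 3, whose fibroblast wells held almost no Hox transcripts, mesothelial wells were at 527 CPM. FibCtrl plate 3 gave most of the Hoxa5 transcripts and 15 of the 33 wells, and no test was made.

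Pericyte wells were led by Hoxb2 at 97.97 CPM (72.4 to 129), with 20 of 49 transcripts from FibCtrl plate 1 and 28 from FibΔZeb1 plate 1. Their summed Hoxd9 to Hoxd11 level was 10.3 CPM on FibCtrl plate 1 and 38.3 CPM on FibΔZeb1 plate 1, and Hoxc4 to Hoxc10 were at 242 and 99.7 CPM. The same plates were ordered the same way in fibroblast wells. The pericyte Hoxd9 to Hoxd11 levels rest on 2 transcripts in 8 wells and 10 transcripts in 16 wells. Their intervals, 1.25 to 37.2 CPM and 18.4 to 70.5 CPM, overlap. Those of Hoxc4 to Hoxc10, 178 to 322 CPM and 65.1 to 146 CPM, do not.

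Within epithelium, 41 wells formed a cluster led by Reg4, Clca6 and Guca2a, and 36 of them were on FibΔZeb1 plate 2, where 33 wells belonged to the other epithelial clusters. On that plate Hoxa7 was at 96.8 CPM (68.5 to 133) in this cluster, and Hoxa9, Hoxa10 and Hoxa5 were at 112, 101.9 and 99.3 CPM. Hoxb9 was at 28.01 CPM (13.98 to 50.1) and Hoxb7 also at 28.01 CPM. In the other wells of the plate Hoxa7 was at 4.31 CPM (1.40 to 10.1), Hoxa9, Hoxa10 and Hoxa5 were at 14.7, 22.4 and 34.5 CPM, Hoxb9 was at 147 CPM (125 to 170) and Hoxb7 at 88.9 CPM. Hoxa members were thus higher and Hoxb7 and Hoxb9 lower in the cluster, with intervals that did not overlap. Cdx1 was at 270 CPM and Cdx2 at 110 CPM in the cluster, beside 3.45 and 30.2 CPM in the other wells. The cluster is nearly all from 1 plate, so its Hox values describe that plate.

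The Hoxd genes of epithelium also differed by plate. Hoxd9 to Hoxd13 gave 62 transcripts in 26 of 43 epithelial wells on FibΔZeb1 plate 1 (40.9 CPM), and between 2 and 15 transcripts on each other plate (1.46 to 13.7 CPM). Of the 28 Hoxd13 transcripts in epithelial wells 19 were on this plate. Over Hoxd9 to Hoxd11 alone the epithelial wells of that plate were at 28.4 CPM, and its fibroblast wells were also high, at 131 CPM. Its fibroblast wells held 1 Hoxd13 transcript (1.46 CPM). Col1a1 was at 418 CPM in its epithelial wells. The part of fibroblast RNA in the epithelial Hoxd level was not tested.

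Cdx1 and Cdx2, intestinal regulators of Hox genes, differed in where they were read in epithelium. The Reg4 and Clca6 cluster held 113 of 117 epithelial Cdx1 transcripts (223 CPM), and the other epithelial wells were at 0.304 CPM (0.08 to 0.78), no higher than the mesothelial level of 1.06 CPM or the immune level of 0.98 CPM. Cdx2 was at 88.6 CPM in the cluster and 24.2 CPM in the other epithelial wells, and at or under 1.06 CPM in fibroblast, mesothelial and immune wells. Meis1 and Meis2, partners of Hox proteins, were at 37.5 and 58.6 CPM in fibroblast wells and 2.49 and 4.61 CPM in epithelial wells.

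The remaining 15 members stayed under 10 CPM in fibroblast, epithelial and mesothelial wells alike. Among them were Hoxa2, Hoxa6, Hoxa11, Hoxa13, Hoxb1, Hoxb13, Hoxc5, Hoxc12, Hoxc13, Hoxd1, Hoxd3, Hoxd4, Hoxd12 and Hoxd13, with pooled maxima from 0 for Hoxd1 to 7.90 CPM for Hoxd4.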

How the data were processed

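SORT-seq transcriptomes were read from 8 plates of 384 wells. The authors deposited expected counts of transcripts per gene and well, made by mapping with bwa to the GRCm38 transcriptome and correcting unique molecular identifiers for collisions, so 87.1% of values were whole, with no scaling for depth. The submitters' processing notes also name Cell Ranger 2.1.1 without its role. Wells under 500 transcripts or beyond 3 median absolute deviations in mitochondrial share were left out. Wells were clustered without Hox genes (Leiden, resolution 1, leidenalg 0.10.2) and named from marker lists. The per-well sort gates were not used here. No doublet caller was run, and 37 fibroblast wells with Ptprc or Epcam transcripts were set apart. Well numbers 1 to 384 repeat on every plate by construction. Class levels on a plate needed 5 wells, and shares 20 Hox transcripts. Plates, 1 tumour each, were the replicates. Counts summed per class and plate (at least 10 wells) were rounded and tested with edgeR 4.0.16 (quasi-likelihood, TMM, Benjamini-Hochberg) and DESeq2 1.42.0. Single values were tested by exact permutation or sign-flip tests (scipy 1.17.1). Exact intervals were at 95%. On simulated epithelial data, 79.5% of 200 genes changed 4-fold were recovered (10117 genes), and 71% on fibroblast data (7781 genes). Named genes were members at 10 CPM or more in fibroblast, epithelial or mesothelial wells. The members and lists were chosen with earlier results of these data known. In epithelial wells plates of the same replicate number, which also share a flow cell by file name, were correlated (correlation of deviations 0.132 to 0.531, 4 of 4 pairs over 0.1). For 3 of 4 FibCtrl plates the FibΔZeb1 plate of the same number was the closest. FibCtrl plate 4 was closest to FibΔZeb1 plate 3, of the same flow cell, so replicate and flow cell cannot be told apart. Some items are not reported here.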

Additional observations from a re-analysis of the deposited data

Results flagged for a closer look

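Among 60 groups of plates examined for a value far from the others, 4 stood out, where chance gives about 1 in 20. Hoxc8 in fibroblast wells was 156 CPM on FibΔZeb1 plate 4 and 4.37 to 14.7 CPM on the other FibΔZeb1 plates. The summed Hox level in epithelial wells was 730 CPM on FibCtrl plate 1 and 560 to 585 CPM on the other FibCtrl plates. The Hoxd share of epithelial wells was 4.68% on FibCtrl plate 1, beside 3.49 to 3.53% on the other FibCtrl plates. It was 12.1% on FibΔZeb1 plate 1, beside 2.77 to 4.34% on the other FibΔZeb1 plates. Wells outside the comparisons also held Hox transcripts, at 448 CPM in wells of unnamed clusters and 431 CPM in wells below 500 transcripts.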

How the results depend on the processing

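Of 313 alternative values over 18 results, 269 stayed the same. For tests this meant the same direction and side of the threshold, and for counts of genes called a change of at most 1.5-fold. Some of these could not change, as for fibroblast wells without FibCtrl plate 2, which had too few wells to enter. With at least 3 fibroblast wells per plate the genotype difference in summed Hox level of fibroblast wells was -29.6 CPM, that in posterior share -2.69 points, and fibroblast minus epithelial wells -104 CPM (exact p = 0.266). With at least 10 wells these summed differences were -12.5 and -91.4 CPM, fibroblast minus immune wells 479 CPM and the Hoxc share difference 35.4 points. With classes from marker sums they were -75.2 CPM for fibroblast minus epithelial, 468 CPM for fibroblast minus immune and 34.5 points for Hoxc. In both settings the smallest p of 5 plates is 0.0625, above the threshold by construction. Paralogues 10 to 13 alone gave a posterior difference of -16.5 points (exact p = 0.0312). With the replicate block the posterior genotype difference in fibroblast wells was -5.03 points and 51 genes were called in fibroblast wells, and it changed no other call. There the numbers were shared by 2 pairs of plates (correlation 0.150 to 0.267), and 1 of 4 immune pairs passed 0.1. Genes called in fibroblast wells numbered 2 with marker sums, 0 with Ptprc or Epcam wells kept, 37 with DESeq2, 50 with a flow cell covariate and 322 with no gene filter, which called 3 Hox members. DESeq2 called 1 gene in epithelial wells. Other causes of these changes were not tested. Leaving out 1 plate at a time, the summed genotype difference ranged from -45.3 to 202 CPM for fibroblasts and, for immune wells, between -39.0 and 3.04 CPM, for epithelial wells between 35.8 and 94.5 CPM, and the posterior difference from -4.21 to 11.2 points in fibroblast and from -1.45 to 3.19 points in epithelial wells. Fibroblast minus epithelial wells ranged from -210 to -127 CPM, the Hoxc share difference from 25.04 to 35.4 points, and genes called in fibroblast wells from 0 to 15. With FibCtrl plate 1 or 4 left out, 15 or 7 genes were called, the lone FibCtrl plate being assumed to vary like the others. With few fibroblast wells on FibCtrl plates 2 and 3, low members were not detectable there.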
